A study of Homo sapiens with 7 samples.

Results

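The ZNF143 chromatin loops of unmodified HEC-1-B cells were compared with the ZNF143 loops of cells from which CTCF had been depleted, to see which loops of the unmodified cells were still listed. HEC-1-B is a line of human uterine adenocarcinoma cells. The members were all 11981 loops of the wild-type ZNF143 list and all 20587 loops of the ZNF143 list from CTCF-AID cells given auxin (IAA) for 24 h, 32568 of the 135475 loops in the 7 lists of the series. In CTCF-AID cells, CTCF carries a degron tag and is broken down once auxin is added. The labels give HEC-1-B as the line behind both groups and do not say whether the CTCF-AID line was 1 clone. The reference groups were CTCF-AID cells at 0 h of auxin with the ZNF143 antibody (40405 loops), and wild-type cells with a CTCF antibody (19313 loops) or a RAD21 antibody (16788 loops). CTCF and RAD21 lists from cells with the ZNF143 gene knocked out (ZNF143KO) were used to annotate single loops.

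HiChIP joins neighbouring DNA ends inside fixed nuclei and then pulls down, with an antibody, the joined fragments bound by 1 protein. ZNF143 is a zinc-finger activator best known from promoters of housekeeping and small nuclear RNA genes. CTCF is a zinc-finger protein whose bound sites stop cohesin, the ring complex that contains RAD21, while it extrudes a DNA loop, so that pairs of CTCF sites come to lie at loop bases. Promoters can also contact each other and enhancers without CTCF at both ends.

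Each group had 1 library, so no test across replicates was possible and no p-value is given. Intervals are 95% intervals for counting errors in these libraries only, and loops with a common anchor depend on each other. PCR copies, which were not measured here, could add to this. A loop was taken as listed in another list when both of its anchors, widened by 5 kb, overlapped both anchors of a loop there. A loop coincided with CTCF when it was listed in this way in the wild-type CTCF list. The lists start at a count of 2, so a loop that is not listed is not shown to be absent. Wild-type and 24 h cells differ in cell line and in library as well as in CTCF, and these cannot be told apart in that comparison alone. The loop lists do not measure CTCF itself, so its removal was not checked here. The 0 h list shares the line with the 24 h list and is given beside it for the main comparisons. The wild-type list had 6192 loops with a count of 2, 2225 with 3 and 1028 with 4, whereas the 24 h list had 12137, 870 and 2873. Of the loops with more than 2 counts, 36.1% had an even count in wild type, 66.0% at 0 h and 68.0% at 24 h. A count in the CTCF-AID lists may therefore not have the same scale as in wild type.

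Of the 11981 wild-type ZNF143 loops, 4940 were listed at 24 h of auxin, which is 41.2% (95% interval 40.4 to 42.1). At 0 h, 7140 were listed, or 59.6%. The level depends on the matching rule: with identical anchor coordinates in place of overlap, a rule added after seeing the data, 18.9% were listed at 24 h. The 0 h list is the longer one. When it was shortened to its 20587 highest-count loops, the length of the 24 h list, 50.2% of wild-type loops were listed at 0 h if the shorter loops were kept among those with the lowest count, and 45.1% if the longer ones were. Loop by loop, 4153 (34.7%) were listed at both times, 2987 (24.9%) at 0 h only, 787 (6.57%) at 24 h only and 4054 (33.8%) at neither. The 787 loops found at 24 h alone were the longest of these 4 sets, with a median span of 220 kb against 125 kb for loops found at both times. The whole lists differ in span as well, with medians of 144 kb in wild type, 236 kb at 0 h and 300 kb at 24 h.

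Loops that coincided with CTCF loops were listed less often after depletion and more often before it. There were 2273 such loops, 19% of the wild-type ZNF143 list. At 24 h, 29.2% of them were listed against 44.1% of the other 9708 loops, a difference of -14.9 points (-17.0 to -12.7). This difference was -9.74 points with a 10 kb extension and -7.01 points without loops at an anchor of 11 or more. At 0 h the order was the opposite, with 63.0% of coinciding and 58.8% of other loops, a difference of 4.15 points (1.92 to 6.34). The share listed was therefore 33.8 points lower at 24 h than at 0 h for coinciding loops (31.7 to 35.9) and 14.8 points lower for the others (13.7 to 15.8). These 2 falls differed by 19.04 points (16.7 to 21.4), an interval for counting errors that leaves out differences between libraries. These falls depend on the length of the 0 h list. With that list shortened and the shorter loops kept, they were 28.5 points for coinciding loops (57.7% at 0 h) and 4.43 points for the others (48.5% at 0 h). With the longer loops kept, they were 19.5 points (17.4 to 21.6) and 0.196 points (-0.851 to 1.24). The falls then differed by 24.1 points (21.7 to 26.5) and 19.3 points (17.0 to 21.6). Among the loops already listed at 0 h, 42.8% of the 1431 coinciding and 62.0% of the 5709 other loops were listed again at 24 h, a difference of -19.3 points (-22.1 to -16.4), which was -9.75 points with a minimum count of 5 in each list and -12.8 points without loops at an anchor of 11 or more. Loops listed at 24 h but not at 0 h were 2.24% of the coinciding and 7.58% of the other loops.

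The share listed at 24 h was higher in each higher class of wild-type count. It was 28.7% at a count of 2, 43.3% at 3, 51.2% at 4, 62.8% at 5 to 9, 69.8% at 10 to 19 and 80.7% (75.1 to 85.2) at 20 or more. Loops with 10 or more counts were listed 44.2 points more often than loops with 2 (40.9 to 47.3), or 25.8 points with identical anchor coordinates. The rise was also there at 0 h, from 44.9% at a count of 2 through 63.7%, 73.6%, 82.8% and 91.2% to 97.0% at 20 or more, and loops with 10 or more were listed 47.9 points more often than loops with 2 (45.6 to 49.9). In each count class the coinciding loops had the lower share at 24 h. At a count of 3 the shares were 25.5% and 47.5%, a difference of -22.0 points (-26.5 to -17.1). At 5 to 9 they were 49.8% and 65.3% (-15.5 points, -21.8 to -9.21). At 10 to 19 they were 65.5% and 70.8% (-5.34 points, -15.4 to 3.89), and at 20 or more 73.1% of 52 and 82.9% of 181 loops (-9.80 points, -24.0 to 2.08). Both of these intervals included 0, as did that of the 2 classes together (-6.13 points, -14.3 to 1.40). At 0 h the same classes differed by -1.43 to 8.54 points.

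**Figure D1:**
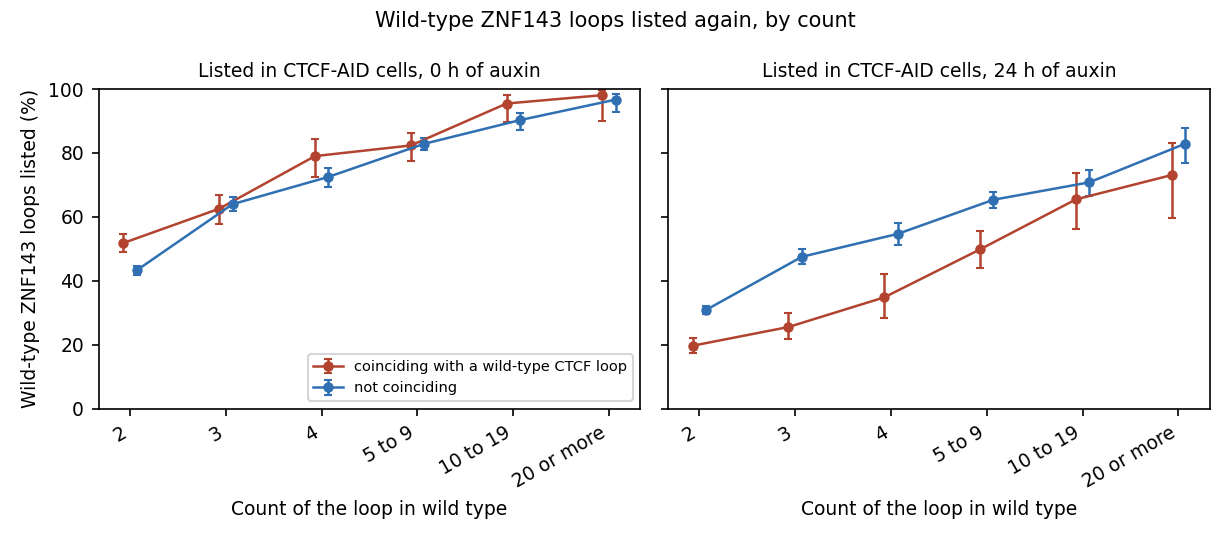
Share of wild-type ZNF143 loops listed in CTCF-AID cells at 0 h (left) and 24 h (right) of auxin, in percent, by count of the loop in wild type, for loops coinciding with a wild-type CTCF loop and for the others. Points are shares and bars 95% Wilson intervals; at 24 h the coinciding loops lie lower in each class, from 19.7% against 30.9% at a count of 2 to 73.1% against 82.9% at 20 or more.

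At 24 h, coinciding and other loops differed more at longer spans. The loops that did not coincide with CTCF loops stayed between 42.2% and 46.2% from 20 kb to 1000 kb. The coinciding loops were listed at 37.2% when they spanned 20 to 50 kb, 32.7% at 50 to 100 kb, 26.0% at 100 to 200 kb, 19.9% at 200 to 500 kb and 20.6% of 63 loops at 500 to 1000 kb. The difference between the classes went from -8.02 points (-12.5 to -3.37) for the shortest loops to -22.3 points (-26.3 to -17.9) at 200 to 500 kb and -22.8 points (-31.5 to -10.8) at 500 to 1000 kb. Coinciding loops had lower shares at longer spans at 0 h too, with 68.0%, 65.5%, 63.3%, 54.4% and 54.0% in the same classes. Their fall to 24 h was 30.8, 32.9, 37.2, 34.5 and 33.3 points, whereas that of the others was 19.4, 18.7, 14.1, 14.2 and 6.85 points. These falls changed, and for the others turned in part, with the shortened 0 h list. With its shorter loops kept they were 30.8, 32.9, 31.2, 18.98 and 9.52 points (-5.66 to 24.7) for coinciding loops, and 19.4, 18.7, 6.60, -5.69 and -15.3 points for the others, a negative value being a higher share at 24 h. With its longer loops kept they were 19.4, 16.9, 21.9, 18.98 and 23.8 points, and 7.52, 3.21, -0.49, -5.69 and 0.10 points. The shortening itself cut by span among 0 h loops with a count of 2, whereas the 24 h list kept all of its own. Span classes that lost such loops were thus not compared at a like count. Their falls, the negative ones included, follow in part from that rule. At 0 h the coinciding and the other loops lay within 3.72 points of each other in each span class up to 1000 kb, and each of these intervals included 0. Only 8 coinciding loops were longer than 1000 kb, too few for a share. Coinciding loops listed at 24 h had a median span of 75.7 kb, against 110 kb for those not listed, whereas the other loops had medians of 155 and 165 kb. Over all wild-type loops the median spans were 139 kb (listed) and 147 kb (not listed), a ratio of 0.943 (0.894 to 0.998). The interval included 1 with no extension (0.983, 0.931 to 1.05) and under 3 other settings.

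**Figure D2:**
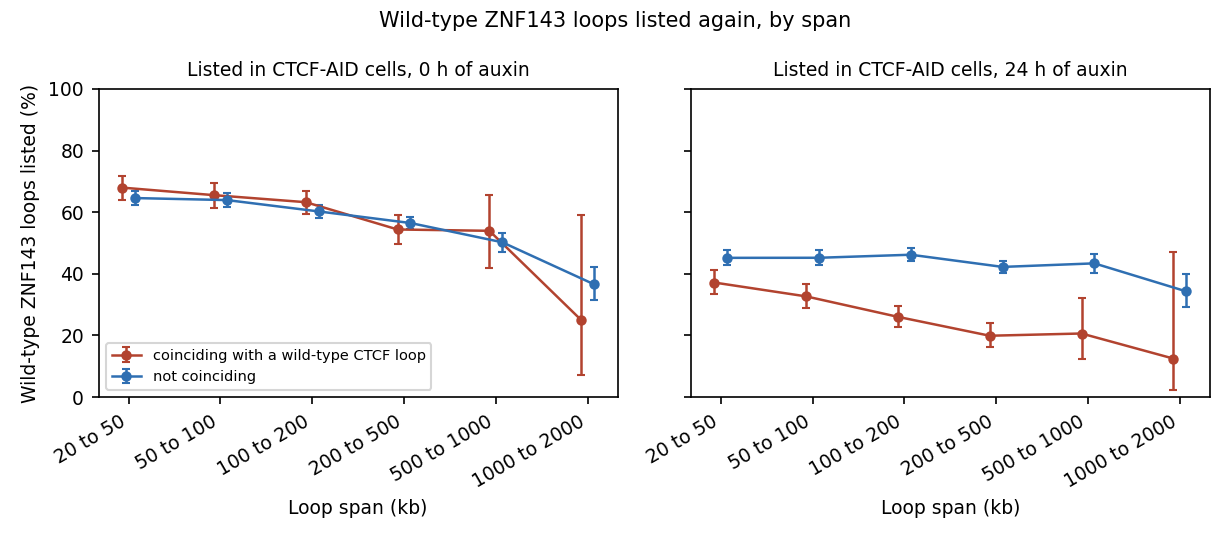
Share of wild-type ZNF143 loops listed in CTCF-AID cells at 0 h (left) and 24 h (right) of auxin, in percent, by loop span in kb, with 95% Wilson intervals. At 0 h both classes run together, and at 24 h the coinciding loops go from 37.2% at 20 to 50 kb to 19.9% at 200 to 500 kb while the others stay above 42% up to 1000 kb and are at 34.3% beyond.

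The number of anchors at CTCF sites gave the same order in finer steps. Here an anchor counted as a CTCF anchor, or as lying at a CTCF site, if it lay at any anchor of the wild-type CTCF list. Lying at no such anchor does not show that CTCF binding is absent. Loops with 0, 1 and 2 CTCF anchors were listed at 24 h at 49.6%, 43.2% and 34.1%, and at 0 h at 56.7%, 59.7% and 61.1%. The order at 24 h was thus the opposite of that at 0 h. Having both anchors at CTCF sites was not the same as coinciding with a CTCF loop. Of the 2102 loops with 2 CTCF anchors that no CTCF loop joined, 39.3% were listed at 24 h, which is above the 29.2% of loops that CTCF loops did join (difference -10.2 points, -13.0 to -7.37). For RAD21 anchors, loops with 0, 1 and 2 of them were listed at 24 h at 49.9%, 41.4% and 33.8%, and at 0 h at 56.7%, 59.9% and 61.6%.

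Cohesin loops gave a graded picture. Wild-type ZNF143 loops that were also both CTCF and RAD21 loops were listed at 24 h least often, at 27.6% of 1512 (25.4 to 29.9). Those shared with CTCF alone were listed at 32.3% of 761 (29.1 to 35.7), those shared with RAD21 alone at 34.3% of 440 (30.0 to 38.9) and those shared with neither at 44.5% of 9268 (43.5 to 45.5). At 0 h these 4 sets lay between 58.8% and 64.0%. The strength of the CTCF loop itself ordered the 0 h shares but not the 24 h shares. With CTCF counts of 2, 3 to 4, 5 to 9, 10 to 19 and 20 or more, the coinciding ZNF143 loops were listed at 57.0%, 62.2%, 63.9%, 65.6% and 80.0% at 0 h. At 24 h the shares in the same classes were 28.3%, 32.0%, 25.6%, 29.5% and 33.1%, with overlapping intervals. The 0 h share thus stood further above the 24 h share at a CTCF count of 20 or more than at 2. Of the loops listed at 0 h, 45.7%, 45.7%, 37.8%, 42.5% and 40.0% were listed again at 24 h, also with overlapping intervals. Coinciding loops whose CTCF loop was also listed in ZNF143KO cells (1440) and those whose CTCF loop was listed in wild type only (833) were listed at 24 h at 29.0% and 29.5%. At 0 h these 2 sets stood apart, at 66.1% (63.6 to 68.5) and 57.5% (54.1 to 60.8). Among those listed at 0 h, 41.2% (38.1 to 44.3) and 45.9% (41.5 to 50.4) were listed again at 24 h.

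Loops that were not listed at 24 h mostly lacked an anchor there. Of the 7041 such loops, 1132 (16.1%) had neither anchor among the anchors of the 24 h list, 4694 (66.7%) had 1 and 1215 (17.3%, 16.4 to 18.2) had both. With identical anchor coordinates the share with both was 5.64%. Where both anchors were present, 80.3% of loops were listed. An anchor enters a list only through a loop with at least 2 counts, so the presence of an anchor and of its loops are not independent. Coinciding loops had both anchors at 24 h in 867 of 2273 cases, and 76.5% of these were listed. The other loops had both in 5288 of 9708 cases, and 80.9% of these were listed, a difference of -4.41 points (-7.52 to -1.50). The gap between the classes was thus smaller among loops with both anchors there. In the 0 h list, 9920 wild-type loops had both anchors and 72.0% of these were listed, 75.7% of the coinciding and 71.1% of the other loops (4.57 points, 2.36 to 6.70).

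The 9711 single anchors of the wild-type list showed the same contrast. At 24 h, 46.9% of the 5836 anchors at CTCF sites (45.7 to 48.2) and 57.3% of the 3875 other anchors (55.7 to 58.8) were still anchors of some ZNF143 loop. At 0 h the shares were 84.7% and 79.0%. Many anchors had identical coordinates in several lists: 6091 of the wild-type anchors (62.7%) recurred base for base at 0 h and 3275 (33.7%) at 24 h.

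Anchors that joined many wild-type loops were nearly all present in both CTCF-AID lists. An anchor with 1 wild-type loop was present at 24 h in 39.0% of 5554 cases, one with 2 to 3 loops in 57.3%, with 4 to 6 in 78.6%, with 7 to 10 in 93.9%, and with 11 or more in 311 of 313 cases (99.4%, 97.7 to 99.8). Before auxin the same classes stood at 75.7%, 88.1%, 96.3%, 99.3% and 100% (0 h), so the gradient was there too. Anchors at CTCF sites were present at 24 h less often than the others in each class, with 35.6% against 43.7% at 1 loop, 52.6% against 67.0% at 2 to 3, 71.3% against 89.9% at 4 to 6, 89.2% against 98.6% at 7 to 10 and 98.7% against 100% at 11 or more. The loops themselves followed their busier anchor, the one with more wild-type loops. They were listed at 24 h at 9.0% (7.36 to 10.96) when neither anchor had another loop, 18.8% at 2 to 3 loops, 33.6% at 4 to 6, 44.9% at 7 to 10 and 58.3% (56.9 to 59.6) at 11 or more. At 0 h the shares were 28.6%, 41.5%, 54.7%, 64.2% and 73.3%.

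Coinciding loops sat at less busy anchors than the others, and this moved with the 24 h difference. They were 32.0% of the loops whose anchors had no other loop (313 of 978) and 8.81% of the loops at an anchor of 11 or more (470 of 5333). Within classes of the busier anchor, the coinciding and other loops differed at 24 h by -1.02, -3.69, -6.81, 5.09 and -3.69 points, from the least to the most busy, with intervals below 0 at 2 to 3 and 4 to 6 loops only. The overall difference of -14.9 points was therefore not seen at that size in any of these classes. The difference of -19.3 points among loops listed at 0 h was also smaller in each of them, at -7.72 (-16.9 to 1.97), -11.7, -9.26, -0.20 (-8.12 to 7.48) and -10.9 points, with intervals that included 0 in the first and the fourth class. The contrast with 0 h was seen in each of them. At 0 h the coinciding loops lay 16.6, 16.8, 10.6, 18.3 and 15.7 points above the others in the same order, and their fall to 24 h exceeded that of the others by 17.6 (11.2 to 24.1), 20.5 (16.1 to 25.0), 17.4 (11.9 to 23.0), 13.2 (5.78 to 20.6) and 19.4 points (14.4 to 24.4). Over the 16 classes of count, span or busier anchor with at least 30 coinciding loops, which overlap each other, the interval for the larger fall of coinciding loops lay above 0 in 15. In the remaining class, a count of 20 or more, the falls differed by 11.2 points (-1.72 to 24.1). With the shortened 0 h list the interval lay above 0 in the same number of classes, 15 of 16, whichever loops were kept.

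**Figure D3:**
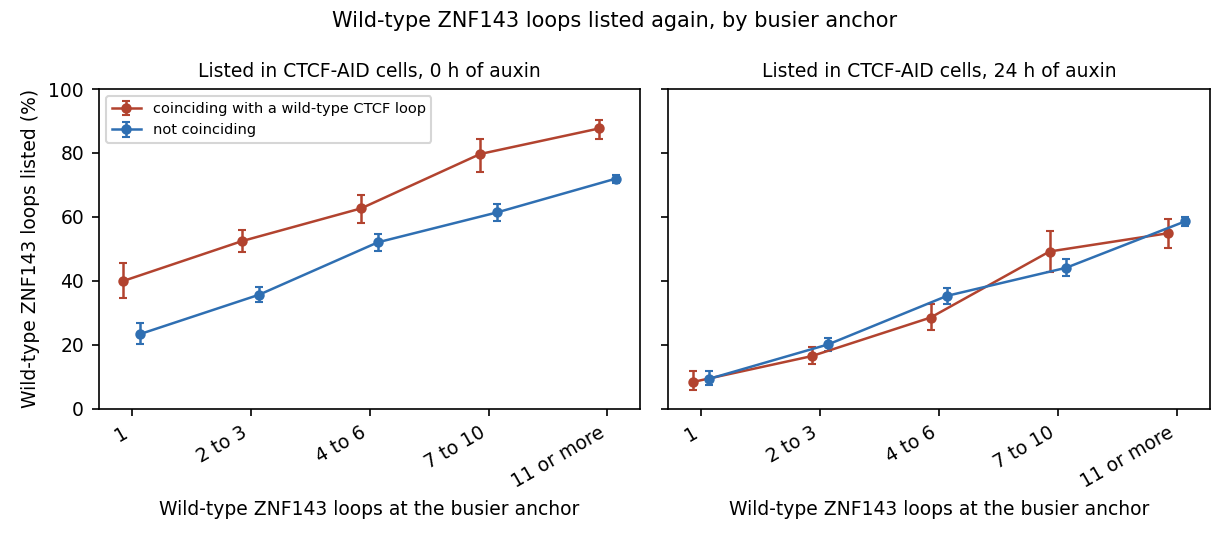
Share of wild-type ZNF143 loops listed in CTCF-AID cells at 0 h (left) and 24 h (right) of auxin, in percent, by number of wild-type ZNF143 loops at the busier of the loop's 2 anchors, with 95% Wilson intervals. Coinciding loops lie above the others at 0 h by 10.6 to 18.3 points, and at 24 h both classes run close together from about 9% to about 55 to 59%.

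The busiest anchors are given here as single loci, without a split by CTCF. The anchor with the most wild-type loops, chr19:49147532-49150488, joined 58 loops spanning 26.5 to 1866 kb, of which 47 were listed at 0 h and 42 at 24 h. At chr19:49297700-49299687, 36 of 46 loops were listed at 0 h and also 36 at 24 h. At chr19:47353490-47355035, 40 of 46 loops were listed at 0 h and 29 at 24 h, and at chr19:56651574-56654677, which lay at no anchor of the wild-type CTCF list, 37 and 30 of 44. A pair of anchors on chromosome 17 that are joined to each other had lower shares at 24 h. At chr17:73779486-73781987 the loops listed were 33 of 44 at 0 h and 24 at 24 h, and at chr17:73850841-73852478 they were 34 and 22 of 44.

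Chromosome 19 held 24.6% of all wild-type ZNF143 loops and 36.5% of those listed at 24 h. Its share listed at 24 h was 61.2% (59.4 to 62.9) against 34.7% (33.7 to 35.7) on all other chromosomes together, and at 0 h the shares were 72.5% and 55.4%. Its loops sat at busier anchors, with a median of 21 loops at the busier one. In the classes of busier anchor, from 2 to 3 loops upward, the 24 h shares on chromosome 19 and elsewhere were 17.2% and 18.9%, 34.5% and 33.5%, 51.3% and 43.3%, and 66.7% and 51.6%. In the least busy class 0 of 16 loops on chromosome 19 and 88 of 962 elsewhere were listed. Without chromosome 19 the CTCF difference at 24 h was -11.3 points (-13.5 to -9.06). Over the 17 chromosomes with at least 200 wild-type loops, the 24 h share ran from 21.3% (chromosome 10) to 61.2%, with a median of 32.9%, and chromosome 16 came next to chromosome 19 with 50.3%. On all 17 the share at 24 h was below that at 0 h, and on 17 or 15 of them with the 0 h list shortened and its shorter or longer loops kept. Coinciding loops had the lower 24 h share on 16 of the 17.

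**Figure D4:**
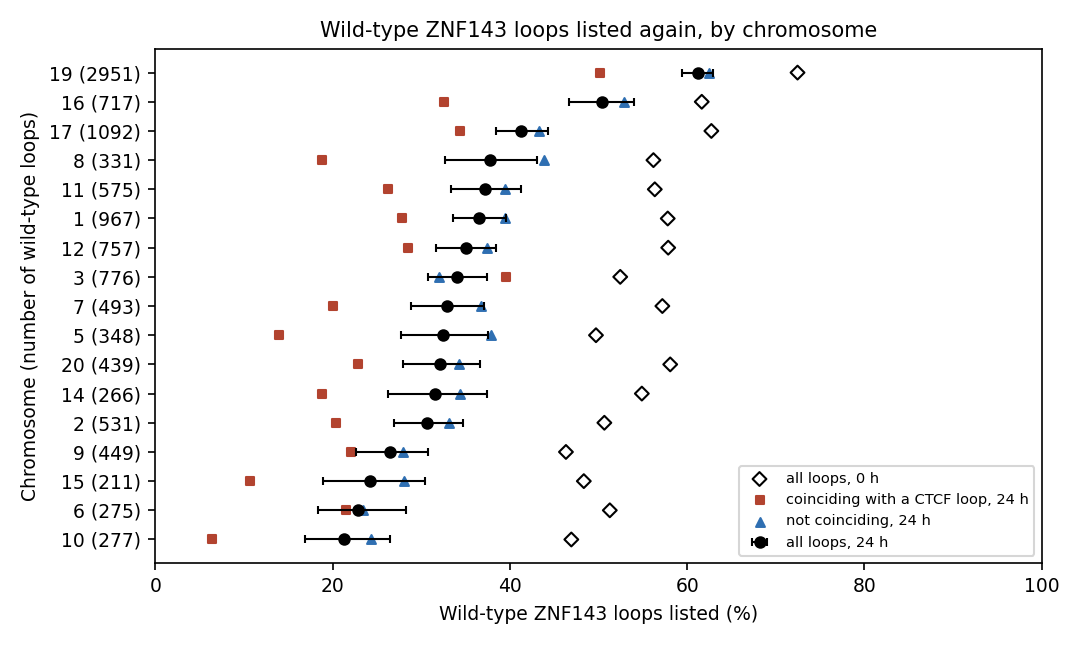
Share of wild-type ZNF143 loops listed in CTCF-AID cells, in percent, for the 17 chromosomes with at least 200 wild-type loops (number in brackets). Filled circles with 95% Wilson intervals give all loops at 24 h, diamonds all loops at 0 h, squares and triangles the coinciding and other loops at 24 h; chromosome 19 is highest at 61.2% and chromosome 3 is the only one with the square right of the triangle.

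The exception was chromosome 3, where 39.6% of coinciding and 32.1% of other loops were listed at 24 h (7.55 points, -0.0371 to 15.4). A window of it, between 50 and 51 Mb, was chosen here after its values were seen. This window held 45 coinciding loops, more than any other window of 1 Mb, on 24 anchors between chr3:50225862 and chr3:50691087. Of these 45 loops, 44 were listed at 0 h and 42 at 24 h (93.3%), with a median count of 4 in wild type, 10 at 0 h and 13 at 24 h. The matching CTCF loops had a median count of 5 and a maximum of 30. Other loops of the window were often listed too, with 31 of 38 at 24 h, so that 73 of all its 83 loops were listed then. Without the window, 24.2% of coinciding and 28.5% of other loops of chromosome 3 were listed at 24 h (-4.34 points, -11.6 to 3.79), an interval that included 0. Since the window was picked with its share known, leaving it out had to lower the coinciding share. Over all chromosomes without the window the difference was -16.0 points (-18.1 to -13.9).

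Among the 4940 loops listed in both, counts were mostly higher at 24 h, on the scale of each list. The median count was 3 in wild type and 7 at 24 h, and 3455 loops (69.9%) had the higher count at 24 h. The median ratio of the 24 h count to the wild-type count was 1.64 for coinciding loops and 2.00 for the others. On the log2 scale the medians differed by -0.28, with an interval of -0.42 to 0 that reached no difference. This value was 0 or reversed under several other settings, such as 0 with a 10 kb extension and 0.10 with a minimum count of 5. Under others it lay further below 0, at -0.58 (-0.83 to -0.37) with no extension and -0.42 (-0.58 to -0.28) with spans of 50 kb to 1 Mb. It was -0.40 (-0.57 to -0.24) after merging near duplicates and -0.38 (-0.59 to -0.05) without loops at an anchor of 11 or more. Against the 0 h count, which shares line and list layout, the median ratio was 1.00 for the 612 coinciding loops listed at both times and 1.33 for the 3541 others. The ranks of wild-type and 24 h counts were related across loops (Spearman's rho 0.535, n = 4940, a description across loops that share anchors and libraries). In 970 cases (19.6%) more than 1 loop of the 24 h list matched, and the highest count was used.

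**Figure D5:**
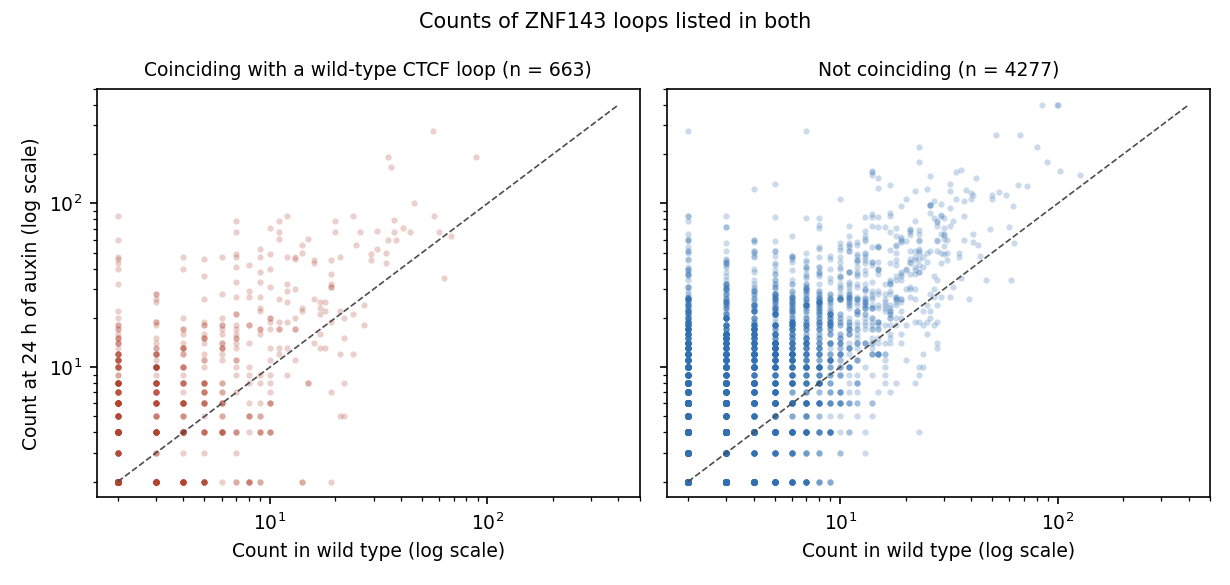
Count of each ZNF143 loop in wild type (horizontal, log scale) and at 24 h of auxin (vertical, log scale) for the 663 coinciding (left) and 4277 other loops (right) listed in both, with a dashed line of equal counts. Most points lie above the line, 63.7% of the coinciding and 70.9% of the other loops.

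Seen from the 24 h list, 4960 of its 20587 loops were in the wild-type list, or 24.1%. The share was 9.55% at a 24 h count of 2, 24.9% at 4, 45.4% at 5 to 9, 74.3% at 10 to 19 and 92.4% (90.2 to 94.1) at 20 or more. The 15627 loops not in the wild-type list were longer, with a median span of 390 kb against 143 kb, and 4.00% of them coincided with wild-type CTCF loops, against 12.7% of the loops in both lists. These 2 shares also reflect the spans. They were 9.71% against 18.3% at 50 to 100 kb and 7.73% against 13.3% at 100 to 200 kb. With both anchors in wild type they were 15.2% against 18.3% and 10.7% against 13.3% in these 2 span classes. Of these 15627 loops, 5185 (33.2%) were listed at 0 h. Many of the loops joined anchors already in use in wild type: 7688 of them (49.2%) had both anchors among the wild-type anchors, 5824 (37.3%) had 1 and 2115 (13.5%) had none. Their median spans were 454, 365 and 242 kb in the same order. Among 24 h loops with both anchors in wild type, 72.4% of those spanning 20 to 50 kb were wild-type loops, 54.9% at 100 to 200 kb, 19.3% at 500 to 1000 kb and 6.17% (5.15 to 7.39) at 1000 to 2000 kb.

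The strongest wild-type loops of each class are given next, with counts in each list. Among loops that coincided with CTCF and were listed at 24 h, the highest count was that of chr19:45906702-45909809 to chr19:45987998-45989832, 80.7 kb apart, with a count of 89 in wild type, 97 at 0 h and 192 at 24 h. Its CTCF count was 13 in wild-type and 5 in ZNF143KO cells, and its RAD21 count was 5 and 7. A second loop to the same right-hand anchor, from chr19:45942137-45943668, had ZNF143 counts of 60, 70 and 67 in that order, with larger CTCF (33) and RAD21 (47) counts in wild type. The ZNF143 count of the loop from chr17:73850841-73852478 to chr17:73890848-73893820 was 68 in wild type, 33 at 0 h and 63 at 24 h. The loop from chr17:43238143-43240282 to chr17:43274551-43276348 was the only one of these 4 with a count that was lower at each step, at 63, 44 and 35. It was a CTCF loop with a count of 21 in wild-type and 22 in ZNF143KO cells.

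Among listed loops that did not coincide, the strongest wild-type loop of all joined chr17:73779486-73781987 to chr17:73850841-73852478, with counts of 127 in wild type, 111 at 0 h and 150 at 24 h. Both anchors lay at CTCF sites, but no CTCF loop joined them in wild-type cells. The next 3 ended on 1 anchor, chr1:156736325-156738000. From chr1:156694980-156699097 the counts were 102, 138 and 157. From chr1:156715857-156717348 they were 100, 321 and 400, the last being the highest count in the 24 h list. The third, from chr1:156709697-156712115, had a wild-type count of 99 and was matched to the same 24 h loop because these 2 anchors lie within the 5 kb extension. None of these 3 was listed for CTCF or RAD21 in any cells.

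Strong loops could also be missing at 24 h. Of the 233 wild-type loops with a count of 20 or more, 45 were not listed, and 38 of these 45 were listed at 0 h. In 43 of the 45 exactly 1 anchor was missing from the 24 h list, and in the other 2 both anchors were present. Among those that coincided with CTCF, chr19:49297700-49299687 to chr19:49345278-49348903 had a count of 42 in wild type and 50 at 0 h. The loop from chr2:85644971-85646777 to chr2:85777912-85780109 had 35 and 53 and was a strong cohesin loop, with a RAD21 count of 63 and a CTCF count of 34. The loops from chr19:46026524-46027955 to chr19:46061180-46062379 and from chr17:7588829-7592450 to chr17:7620019-7621516 had 33 and 28, and 32 and 35. All 4 had 1 of their anchors in the 24 h list, and all 4 were listed for CTCF in ZNF143KO cells with counts of 3 to 9.

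Among missing loops that did not coincide with CTCF, chr7:112054215-112055788 to chr7:112089702-112092027 had the highest count, 53 in wild type and 61 at 0 h. It was followed by chr12:54095022-54096321 to chr12:54120217-54122490 with 49 and 61, chr16:30075997-30077293 to chr16:30102613-30104051 with 41 and 42, and chr17:73779486-73781987 to chr17:73840615-73842700 with 39 and 24. Each had 1 anchor at a CTCF site, and each had 1 of its 2 anchors in the 24 h list. The last starts from the same anchor as the strongest listed loop of chromosome 17, so that loops of 1 anchor differed in whether they were listed.

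Among 24 h loops not in the wild-type list, the highest counts were 95 for chr19:47353329-47355208 to chr19:47478365-47481205, 71 for chr1:149869629-149872048 to chr1:149898755-149900292, 59 for chr7:150923123-150925665 to chr7:150948211-150950686 and 57 for chr11:63992737-63994915 to chr11:64035785-64039584. Only the loop on chromosome 11 was listed at 0 h, with a count of 36. The loop on chromosome 7 had both anchors among wild-type ZNF143 anchors, whereas the other 3 had 1, and none of the 4 was a wild-type CTCF or RAD21 loop.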

How the data were processed

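The authors deposited 1 loop list per library, in which each line gives 2 anchors and a whole-number count. The deposited counts were used as they are, without scaling. HiC-Pro and the build hg19 are named, without a role, in the submitters' processing notes. The loop caller and its filters are not given in the sources used here. Deposited starts were read as counting from 0, and coordinates are printed counting from 1 in hg19. The gene lists, promoters and motifs planned for this comparison need hg19 sequence and gene positions and were not analysed here, so loops are named by position only.

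Matching widened each anchor by 5 kb and asked for an overlap of at least 1 bp. It was tested on made-up loops with known answers. Shares carry Wilson intervals, differences of shares Newcombe intervals, falls from 0 h to 24 h intervals from the loop-by-loop variance, and medians binomial intervals. Python 3.11.15, NumPy 2.4.6 and SciPy 1.17.1 were used. Named loops are the 4 with the highest count in each class, ties going to the shorter span. The comparison, classes and rules were chosen with earlier results of these data known. The classes of busier anchor, the 1 Mb windows, the fall from 0 h to 24 h and the shortened 0 h list were added after seeing the data. Totals of the listed counts were 49348 in wild type, 143119 at 0 h and 102962 at 24 h. They are not the depth of the libraries, which is unknown.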

Additional observations from a re-analysis of the deposited data

How the results depend on the processing

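Each group had 1 library, so no replicate could be left out and no paired analysis was possible because no group had a second library. Of 94 values recomputed, 36 moved by less than their counting error, 57 moved and 1 reversed. The cause was not tested in any case. The share of wild-type loops listed at 24 h, 41.2% as reported, was 35.2% with no extension, 46.6% with 10 kb, 48.2% and 57.3% with minimum counts of 3 and 5 in each list, 31.5% with a minimum of 4 in the CTCF-AID lists, 37.4% with lists of equal length and 38.6% after merging near duplicates. Among settings chosen after seeing the data, it was 34.7% without chromosome 19, 18.9% for identical anchor coordinates and 27.6% without loops at an anchor of 11 or more. In the same order of settings, leaving out those that moved a value by less than its error, the CTCF difference at 24 h was -20.9, -9.74, -18.9, -12.7, -12.3 and -12.2 points, with spans of 50 kb to 1 Mb -17.8, with CTCF at both anchors as the class -11.3, without chromosome 19 -11.3 and without the busy anchors -7.01. It stayed negative in each of these. Among loops listed at 0 h that difference was -26.9 with no extension, -13.8 with 10 kb, -9.75 with a minimum count of 5, -22.7 for the limited spans, -14.7 for CTCF at both anchors, -16.3 without chromosome 19, -27.2 for identical coordinates and -12.8 without busy anchors. The count difference was 54.8 points with a minimum of 4 in the CTCF-AID lists, 48.8 with equal lengths and 25.8 with identical coordinates. It has no value at minimum counts of 3 and 5, which leave no loop with a count of 2. The span ratio was 0.881 with a minimum of 5, 0.819 with a minimum of 4 in the CTCF-AID lists, 0.733 with equal lengths, 0.874 without chromosome 19 and 0.706 without busy anchors. Its interval included 1 with no extension (0.983), limited spans (0.973), near duplicates merged (0.987) and identical coordinates (0.947). For equal lengths, 24 h loops with a count of 2 were kept from the shortest upward. Longer ones were left out by that rule, which itself lowers the span ratio. The share of 24 h loops not in wild type, 75.9%, was 79.5% and 71.8% with 0 and 10 kb, 67.1% and 68.6% with minimums of 3 and 5, 52.8% with a minimum of 4 in the CTCF-AID lists, 63.1% with equal lengths, 74.9% for limited spans, 77.9% after merging, 79.1% without chromosome 19, 89.0% for identical coordinates and 90.7% without busy anchors. The last setting took loops out of the wild-type list only, leaving 6648, and kept the whole 24 h list. That share therefore had to rise, and it does not describe 24 h loops away from busy anchors. The share of missing loops with both anchors present, 17.3%, was 14.1% and 20.2% with 0 and 10 kb, 15.6% and 14.5% with minimums of 3 and 5, 18.5% with equal lengths, 14.6% without chromosome 19, 5.64% for identical coordinates and 16.3% without busy anchors. The log2 difference of count ratios was -0.58 with no extension and -0.58 for identical coordinates, and it reversed to 0.10 (-0.32 to 0.30) with a minimum count of 5. It was 0 with 10 kb, with CTCF at both anchors and with counts summed over matching 24 h loops, and -0.08 with a minimum of 3 and with equal lengths. The files give no sequencing depth, so loops near the lowest listed count of 2 may be missing from a list for lack of reads.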

Other observations

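Other windows of 1 Mb with many coinciding loops differed widely, and they were picked here for their number of such loops. On chromosome 17, between 46 and 47 Mb, 28 coinciding loops included 17 listed at 0 h and 5 at 24 h, and between 7 and 8 Mb, 23 included 17 and 4. On chromosome 12, between 56 and 57 Mb, 39 coinciding loops included 27 at 0 h and 19 at 24 h. On chromosome 19 the window from 49 to 50 Mb held 39 coinciding loops with 36 at 0 h and 27 at 24 h, and the window from 45 to 46 Mb held 25 with 23 and 18. The other loops listed at 24 h in these windows, in the order given, were 10 of 42, 66 of 118, 48 of 84, 261 of 356 and 58 of 97. The coinciding loops had the higher share only in the last of these 5 windows, with 72.0%.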
